A study of Mus musculus with 8 samples.

Results

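Opposite-strand transcripts are RNAs named after the gene that they face on the other DNA strand, with the suffix os, and they were described here together with these parent genes in EO771, a breast cancer line of the mouse. They were chosen by symbol and by level: a gene symbol had to end in os or in os and a number, and the mean count over 8 RNA-seq libraries had to reach 3, with Fos, Mos, Icos, Ros1, Sos1, Sos2, Nos1, Nos2 and Nos3 left out. This rule found 92 of 49997 genes. Of these, 88 were opposite-strand transcripts, and 4 (Nanos1, Micos10, Uros and Mocos) matched by spelling only and were left out of all counts below. The mean count was 3.38 for Brd3os and 3 for Zbtb8os, the lowest 2 inside the limit, and 2.63 for Plet1os and 2.5 for Tbx3os2, which lay just outside it with Micos13, a match by spelling at 2.75. Another 153 matching symbols lay under the limit, and 85 of them had 0 counts in every library.

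Total RNA was sequenced in 2 experiments with 2 libraries per group. In the first, EO771 cells received vehicle or 100 nM 12-HETE, a lipid made by 12-lipoxygenase, for 48 h (replicates 4 and 5 of each group). In the second, the cells carried an empty vector or a vector that overexpresses ADAR1 p150, the interferon-inducible form of an enzyme that edits adenosine to inosine in double-stranded RNA (replicates 1 and 2 of each group). Nothing in the labels says whether replicates came from separate cultures, so p-values measure the spread between these libraries, which may be technical. Adar had 2 and 8 counts under vector and 181 and 140 under ADAR1 p150, and 5 and 5 under vehicle against 7 and 6 under 12-HETE. As bulk RNA was measured, fewer cells that express a transcript and less RNA per cell cannot be told apart.

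A transcript on the opposite strand can share a promoter region with its parent and run away from it, can run into the parent's 3′ end, or can lie inside its introns and exons. Where both RNAs are present, they can pair into double-stranded RNA, the substrate of ADAR enzymes, and for some pairs transcription of one strand is known to silence the other, as with Tsix and Xist. Most of the 88 are long non-coding RNAs in RefSeq (78), and 7 are annotated as protein-coding, among them Wdr83os and Cebpzos.

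Which strand a count belongs to limits every value below. Library totals lay between 1101767 and 1537037 counts, of which a single gene, AY036118, took 44.4% to 50.3%, and the opposite-strand transcripts took 0.681% to 0.83%. Protein-coding genes with no exon of another gene on the other strand had a median of 0.625 mean counts (15792 genes), whereas those with exon bases on the other strand had 7 (5058 genes). Mean counts reached 100 in 0.95% of the former and in 9.29% of the latter. Gapdh, a glycolytic enzyme that nearly all cells express strongly, had 13 to 42 counts per library, and Actb had 364 to 1227. The library kit named in the study's methods marks strand, the labels name another kit, and no source used here gives the strand setting of the counting. Had reads been assigned to the strand opposite to their own, a count listed under an opposite-strand transcript would hold reads of its parent, and where exons overlap the RNAs cannot be told apart. Each value is therefore the count listed under a symbol, and it was not tested which RNA the reads came from.

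The sequence around the start sites is shown for 4 transcripts on which the comparisons turn, because they were called in different experiments and differ widely in CpG content. Windows were found for 74 transcripts. Bases are in lower case with each CG dinucleotide in capitals, read 5′ to 3′ on the strand of the transcript from RefSeq on GRCm38. Fam120aos and Fam120a are transcribed away from each other, and the first line is the 51 bases between their start sites (chr13:48968061-48968111, plus strand). The other lines are windows from 250 bases before to 50 bases after the start of Rbm3os (chrX:8145177-8145476, plus strand), Bach2os (chr4:32571613-32571912, minus strand) and Nr6a1os (chr2:38815722-38816021, plus strand), none of which overlaps an exon of a protein-coding gene. RefSeq and GENCODE M21, from which positions below are taken, place some starts differently, that of Nr6a1os by several kilobases.
Fam120aos: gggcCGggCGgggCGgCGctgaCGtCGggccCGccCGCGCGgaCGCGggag
Rbm3os: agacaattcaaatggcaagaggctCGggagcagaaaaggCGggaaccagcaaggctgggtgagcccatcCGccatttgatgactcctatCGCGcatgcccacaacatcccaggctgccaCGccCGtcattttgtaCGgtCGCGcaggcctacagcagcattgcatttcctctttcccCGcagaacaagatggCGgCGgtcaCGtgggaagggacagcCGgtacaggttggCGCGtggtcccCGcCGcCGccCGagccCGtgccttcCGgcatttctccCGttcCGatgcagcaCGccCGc
Bach2os: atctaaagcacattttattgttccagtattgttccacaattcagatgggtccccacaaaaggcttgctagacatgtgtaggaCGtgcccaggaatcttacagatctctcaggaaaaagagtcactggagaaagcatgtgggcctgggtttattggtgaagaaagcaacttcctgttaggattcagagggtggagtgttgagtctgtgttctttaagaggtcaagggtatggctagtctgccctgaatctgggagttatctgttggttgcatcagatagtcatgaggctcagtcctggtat
Nr6a1os: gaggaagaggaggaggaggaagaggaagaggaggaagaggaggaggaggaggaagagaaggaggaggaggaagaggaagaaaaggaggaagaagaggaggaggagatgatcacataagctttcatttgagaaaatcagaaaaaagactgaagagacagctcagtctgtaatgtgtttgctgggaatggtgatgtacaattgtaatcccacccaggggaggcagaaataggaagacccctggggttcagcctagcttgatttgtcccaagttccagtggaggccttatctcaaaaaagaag
The stretch next to Fam120aos holds 12 CG dinucleotides, the Rbm3os window 27, the Bach2os window 1 and the Nr6a1os window 0. The ratio of observed to expected CG, which is over 0.6 in CpG islands, was 0.922 in the Rbm3os window and 0.0682 in the Bach2os window. It passed 0.6 in 29.7% of the windows of opposite-strand transcripts, in 72.1% of 68 parent windows and in 36.4% of the windows of all genes. The letters TATAAA, searched on both strands, stood in 6 of the 74 windows (8.11%), in 2 parent windows (2.94%) and in 14.2% of all windows.

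More counts were listed under the opposite-strand transcript than under its parent in 73 of 87 pairs with the parent in the table. The transcripts had been chosen for a mean count of at least 3, whereas no minimum was set for the parents. An excess of the transcripts, here and in the shares below, is thus partly built into the choice and is a description only. The median mean count was 30.8 for the transcripts and 7.63 for the parents, and per kilobase of exon the medians were 24 and 1.19 (84 pairs placed in GENCODE M21, in which 79 transcripts had the higher level). All 84 pairs lay on opposite strands. In 62 pairs the exons overlapped, by 6 to 3255 bases, and the transcript had more counts in 55 of them (88.7%). In the 22 pairs without exon overlap it had more counts in 15 (68.2%), and its median mean count was 14.8, against 37.4 where exons overlapped. Per kilobase of exon the classes did not show this contrast: the transcript had the higher level in 58 of 62 (93.5%) and 21 of 22 pairs (95.5%). The exception with the largest gap was Wdr83os, a small membrane-protein gene, which had 2 to 11 counts per library against 91 to 133 for Wdr83, with 539 shared exon bases. Hk1os likewise had 3 to 18 counts against 82 to 202 for Hk1, a hexokinase.

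**Figure D1:**
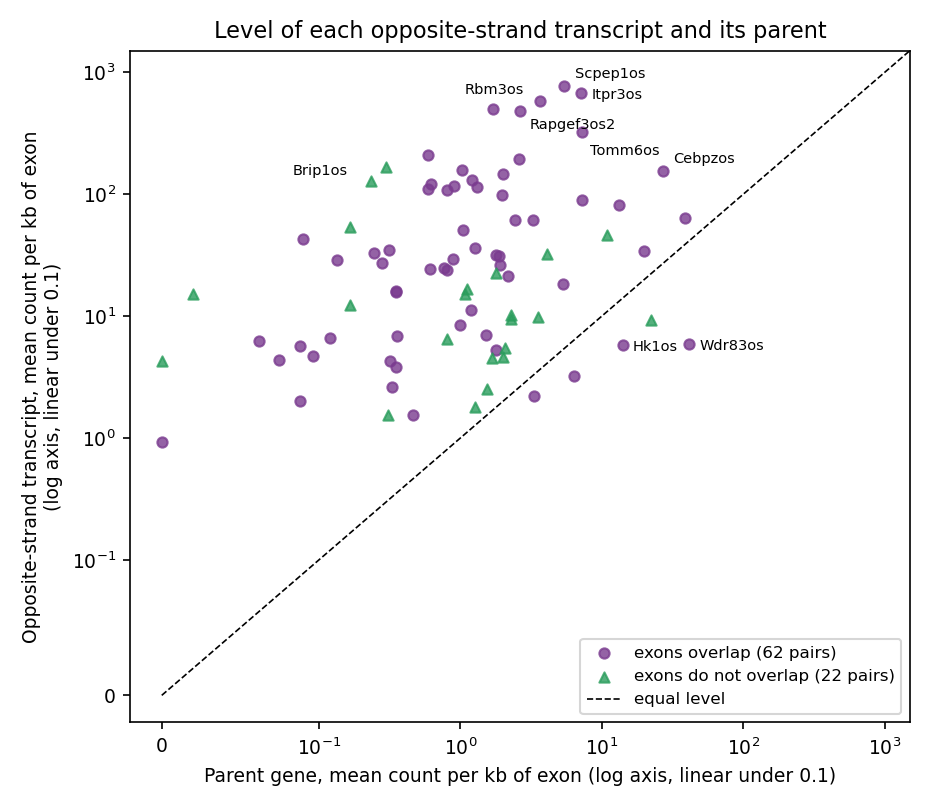
Mean count over 8 libraries per kilobase of exon for each opposite-strand transcript (vertical axis) and its parent (horizontal axis), on log axes that are linear under 0.1; circles are the 62 pairs with exon overlap and triangles the 22 without. Of 84 pairs, 79 lie above the dashed line of equal level, and Wdr83os and Hk1os lie below it. Transcripts were chosen for a mean count of at least 3, and parents had no minimum.

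By position, 24 transcripts overlapped the parent's 5′ end, 15 its 3′ end, 33 lay inside the parent's body and 5 spanned it, while 4 ran apart from it with start sites facing away and 3 ended towards it. The share of a pair's counts listed under the transcript had a median of 95.6% for 3′ overlaps, 84.8% for 5′ overlaps and 84.8% inside the parent. Among the 4 divergent pairs it was 47.5% for Map2k3os, 59.7% for Fam120aos, 99.8% for Brip1os and 100% for Dmrta2os, which had few counts. Brip1os starts 177 bases from Brip1, a helicase that works with Brca1. It overlaps no exon of Brip1, but 800 of its exon bases face Med13, so a neighbour other than the parent can also share its reads. The exons of 9 transcripts overlapped another gene more than the parent, and those of 20 faced no exon at all.

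**Figure D2:**
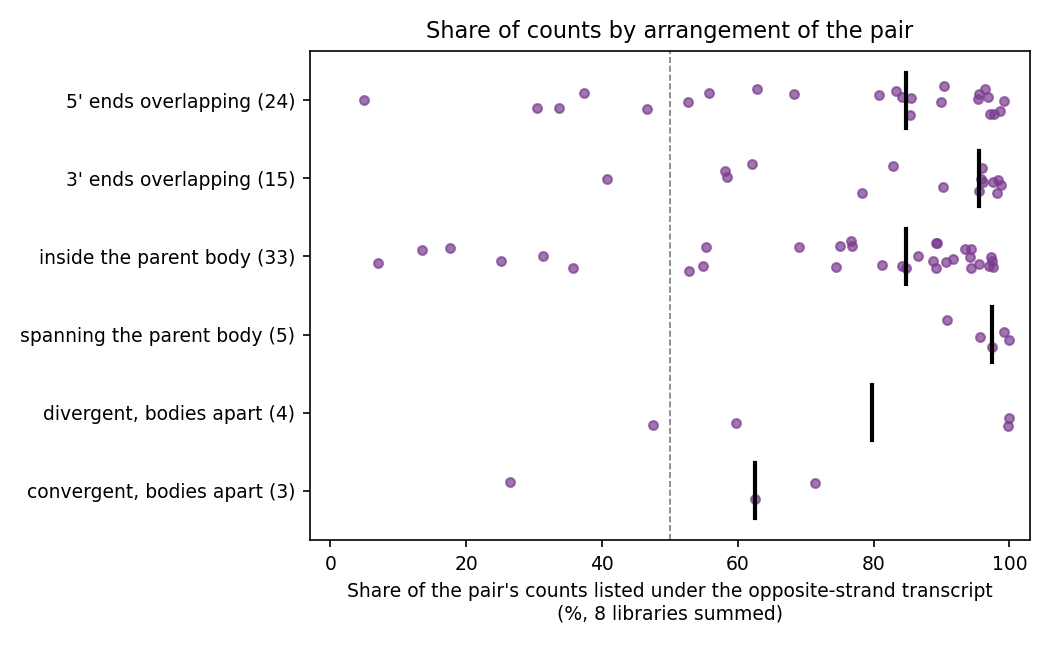
Share of a pair's counts listed under the opposite-strand transcript (%, horizontal axis, 8 libraries summed), with a point per pair and a vertical bar at the median, for 6 arrangements with the number of pairs in parentheses. Most points of each overlapping class lie to the right of the dashed 50% line, and the median of the 15 pairs with overlapping 3′ ends is 95.6%. Transcripts were chosen for a mean count of at least 3, and parents had no minimum.

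Tomm6os (chr17:47687610-47691083, plus strand) had the highest mean count, with 600 and 621 counts under vehicle, 1464 and 1360 under 12-HETE, 675 and 704 under vector and 1087 and 1059 under ADAR1 p150. Its parent Tomm6, a subunit of the translocase of the mitochondrial outer membrane, had 3 to 13 counts. All 4 treated libraries lay above all 4 controls, although treated libraries were also deeper. As normalized CPM, counts scaled to the effective library size, Tomm6os was at 514 ± 1.09 under vehicle and 1043 ± 1.96 with 12-HETE (SD, n = 2 libraries each), and at 616 ± 0.741 under vector and 783 ± 25.3 with ADAR1 p150.

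Brip1os had 950 and 855 counts under vehicle, 793 and 739 under 12-HETE, 918 and 920 under vector and 722 and 789 under ADAR1 p150. It was thus lower in every treated library despite their depth, and Brip1 had 0 to 4 counts. Scpep1os, opposite a serine carboxypeptidase, had 669 and 643, 632 and 565, 638 and 620, and 607 and 618 counts in the same order of groups. Itpr3os, opposite an inositol trisphosphate receptor of the endoplasmic reticulum, had 572 and 561, 548 and 480, 544 and 535, and 557 and 502. These 3 transcripts fell by a small amount under both treatments: by 0.43, 0.32 and 0.33 with 12-HETE and by 0.57, 0.33 and 0.32 with ADAR1 p150 on the log2 scale (highest adjusted p = 0.0141, edgeR quasi-likelihood F test, Benjamini-Hochberg adjusted over all genes tested). Rapgef3os2, opposite a cAMP-activated exchange factor for Rap1, had 351 and 360 counts under vehicle, 536 and 554 under 12-HETE, 359 and 362 under vector and 516 and 517 under ADAR1 p150. In the same test it rose with 12-HETE by a log2 fold change of 0.43 (adjusted p = 0.00166), and with ADAR1 p150 the change of 0.23 did not pass (adjusted p = 0.108). The parents of these 4 were far lower, with Itpr3 at 47 to 96 counts, Rapgef3 at 9 to 22 and Scpep1 at 6 to 21, and Itpr3 also fell with 12-HETE, by 0.78 (adjusted p = 0.003).

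With 12-HETE, 10 of the 67 opposite-strand transcripts with a mean count of at least 10 were called, which asked for a 2-fold change and an adjusted p below 0.05. That is 14.9% against 14.4% of all 6901 genes tested. Of these, 6 were higher (8.96%, against 6.12% of all genes) and 4 lower (5.97%, against 8.25%). The split turned with single libraries: it was 4 higher and 6 lower without vehicle replicate 5, 4 higher and 5 lower without 12-HETE replicate 5, and 8 higher and 2 lower without 12-HETE replicate 4. With AY036118 left out of the library sizes, 7 were called, 3 higher and 4 lower, because Tomm6os, Stk35os1 and Dlx4os then changed by just under 2-fold. Over all genes, 1023 of 6900 were called in that fit. DESeq2 called 5 higher and 2 lower, against 590 of all 6901 genes in either direction. The median log2 fold change of the 67 was 0.04, against 0.00437 over all genes. At an adjusted p alone, 29 passed (43.3%, against 29.3% of all genes), although the transcripts had a median of 61.6 mean counts and all tested genes 27.5. Down to a mean count of 3, 12 of 88 were called (13.6%, against 11% of 12130 genes).

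The largest rise with 12-HETE was that of Lrp8os2, which lies inside Lrp8, a reelin and apolipoprotein E receptor. Lrp8os2 (chr4:107806033-107823022, minus strand) had 28 and 17 counts under vehicle and 98 and 80 under 12-HETE, or 19 ± 6.98 and 65.6 ± 6.11 normalized CPM (SD, n = 2 libraries each). The groups did not overlap, and the log2 fold change was 1.79 ± 0.27 (SE, adjusted p = 2.47e-06 in edgeR). Under vector it had 19 and 42 counts and with ADAR1 p150 56 and 54, a change of 0.56 that did not pass (adjusted p = 0.133). Lrp8 itself had 12 and 12 counts under vehicle, 6 and 16 under 12-HETE, 10 and 6 under vector and 17 and 12 under ADAR1 p150.

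Rbm3os (chrX:8145429-8147964, plus strand) faces the 5′ end of Rbm3, a cold-inducible RNA-binding protein. It had 298 and 368 counts under vehicle, 941 and 873 under 12-HETE, 333 and 286 under vector and 666 and 785 under ADAR1 p150. Both treatments thus gave higher values in every library, with log2 fold changes of 1.26 ± 0.12 with 12-HETE (SE, adjusted p = 1.06e-10 in edgeR) and 0.94 ± 0.12 with ADAR1 p150 (adjusted p = 1.17e-07), the latter just under 2-fold. Rbm3 had 6 and 18 counts under vehicle, 38 and 18 under 12-HETE, 8 and 10 under vector and 22 and 17 under ADAR1 p150. Its log2 fold change of 1.02 with 12-HETE did not pass (adjusted p = 0.056).

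Fam120aos, next to the RNA-binding scaffold gene Fam120a, had 43 and 60 counts under vehicle, 148 and 134 under 12-HETE, 48 and 58 under vector and 81 and 90 under ADAR1 p150. Fam120a had 61 and 83 counts under vehicle, 74 and 59 under 12-HETE, 31 and 42 under vector and 62 and 34 under ADAR1 p150. No exon of Fam120aos overlaps an exon on the other strand, and its start lies 270 bases from that of Fam120a. The log2 fold change with 12-HETE was 1.26 ± 0.19 for Fam120aos (SE, adjusted p = 1.74e-06 in edgeR) and -0.30 ± 0.22 for Fam120a (adjusted p = 0.319). The share of the pair's counts listed under it was 41.3% and 42% under vehicle against 66.7% and 69.4% with 12-HETE. It was 60.8% and 58% under vector, nearer to 12-HETE than to vehicle, and 56.6% and 72.6% with ADAR1 p150, so that the control groups differed as well.

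Stk35os1, opposite a serine/threonine kinase gene, had 122 and 104 counts under vehicle and 255 and 281 under 12-HETE. Dlx4os, opposite a homeobox gene, had 37 and 36 under vehicle and 86 and 86 under 12-HETE. Their log2 fold changes were 1.06 and 1.04, and that of Tomm6os was 1.02 ± 0.09 (SE, adjusted p = 1.22e-10 in edgeR). With ADAR1 p150, Stk35os1 had 139 and 147 counts against 113 and 126 under vector, and Dlx4os 77 and 64 against 39 and 30. Dlx4os passed there with a log2 fold change of 0.73 (adjusted p = 0.0142), and Dlx4 itself rose by 1.05 (adjusted p = 0.000264), from 34 and 41 to 101 and 90 counts, with 46 and 47 under vehicle and 72 and 90 under 12-HETE.

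Among the 4 transcripts that were lower with 12-HETE, Fam219aos had 23 and 36 counts under vehicle and 3 and 15 under 12-HETE, and 24 and 33 under vector against 9 and 20 under ADAR1 p150. It was the only one called under both treatments, with log2 fold changes of -1.88 ± 0.45 and -1.25 ± 0.41 (SE, adjusted p = 0.00153 and 0.0228 in edgeR). At these counts 1 library mattered: without 12-HETE replicate 4 the first change was -1.10 (adjusted p = 0.0884), and the second was -1.04 without vector replicate 2 (adjusted p = 0.145) and -0.75 without ADAR1 p150 replicate 1 (adjusted p = 0.269). DESeq2 did not call the second either (adjusted p = 0.15).

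Frs3os, opposite an adaptor of the fibroblast growth factor receptor, had 40 and 41 counts under vehicle and 18 and 14 under 12-HETE. Fgf2os, opposite basic fibroblast growth factor, had 12 and 19 under vehicle and 5 and 7 under 12-HETE, but 9 and 15 under vector and 21 and 26 under ADAR1 p150. Hoxb5os, which spans a homeobox gene, had 29 and 35 under vehicle and 11 and 21 under 12-HETE. The groups did not overlap for any of them, and the log2 fold changes were -1.52, -1.54 and -1.18 (adjusted p = 0.000163, 0.0144 and 0.00632 in edgeR). Without 12-HETE replicate 4, that of Hoxb5os was -0.74 (adjusted p = 0.17) and that of Fgf2os -1.27 (adjusted p = 0.13), and Fgf2os also failed without vehicle replicate 5 (adjusted p = 0.149). In DESeq2 neither passed. With ADAR1 p150 and vector, Frs3os had 25 and 28 against 30 and 35 counts, and Hoxb5os 39 and 30 against 37 and 35. Frs3 had 0 to 4 counts and Hoxb5 0 or 1.

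With ADAR1 p150, 12 of the 67 transcripts were called (17.9%, against 12.8% of all genes), of which 8 were higher (11.9%, against 8.11%) and 4 lower (5.97%, against 4.69%). Without Grin1os and Bach2os, which met the count minimum only through the ADAR1 p150 libraries, 10 of 65 were called. Genes of that kind were not left out of the shares over all genes, so 10 of 65 has no background. The shares of the 67 include both transcripts, whose calls were conditioned on the high group. Over all 67, DESeq2 called 5, of which 3 were higher, Bach2os among them, and 2 lower. A minimum of 10 counts in every library left 6 of 55, 4 higher and 2 lower, against 429 of 4592 genes. The median log2 fold change was 0.20, against 0.07 over all genes. At an adjusted p alone, 32 passed (47.8%, against 25.6% of all genes). Down to a mean count of 3, 13 of 88 were called (14.8%, against 8.96%). Between the control groups, 0 transcripts were called (vector against vehicle) by edgeR (against 0.0435% of all genes) and by DESeq2, and 2 had an unadjusted p under 0.05.

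Grin1os (chr2:25291220-25298925, plus strand) differed most in its counts. It had 3 and 2 counts under vector and 42 and 33 under ADAR1 p150, and 2 and 1 under vehicle against 3 and 3 under 12-HETE. Expression was thus near the floor of 3 counts in all libraries but those with ADAR1 p150, where it was 27.2 ± 3.25 normalized CPM (SD, n = 2 libraries). Grin1os reached the mean count of 10 only through the ADAR1 p150 libraries (mean 2.33 in the others), so its call was conditioned on the high group, and no test is given. Its 75 summed counts against 5 under vector make a ratio of 12.2 after scaling to the effective library sizes, given as a description without an interval. Grin1, the obligatory subunit of the NMDA receptor, shares 1307 exon bases with it and had 1 and 0 counts under vector and 6 and 10 under ADAR1 p150, with 2 or 3 in each of the others.

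Bach2os, inside a lymphoid transcriptional repressor gene, had 3 and 4 counts under vector, 47 and 23 under ADAR1 p150, 6 and 9 under vehicle and 6 and 1 under 12-HETE. It too met the minimum only through the ADAR1 p150 libraries (mean 4.83 in the others). The ratio of 70 to 7 summed counts was 8.16, likewise without an interval or a test. Bach2 had 0 to 4 counts in every library. The promoter window of Bach2os is among those printed above with hardly any CG.

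Sorbs2os (chr8:45723325-45819297, minus strand) lies inside Sorbs2, an adaptor of the actin cytoskeleton. It had 151 and 145 counts under vector, 587 and 620 under ADAR1 p150, 170 and 136 under vehicle and 253 and 223 under 12-HETE. It rose strongly with ADAR1 p150, by a log2 fold change of 1.74 ± 0.12 (SE, adjusted p = 3.66e-13 in edgeR), and weakly with 12-HETE, by 0.44 ± 0.13 (adjusted p = 0.0109). Sorbs2 had 27 and 23 counts under vector and 53 and 55 under ADAR1 p150, and rose by 0.82 (adjusted p = 0.0235), with 29 and 40 under vehicle and 40 and 24 under 12-HETE.

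Nr6a1os, opposite an orphan nuclear receptor gene, had 93 and 71 counts under vector, 234 and 255 under ADAR1 p150, 105 and 106 under vehicle and 126 and 89 under 12-HETE. It lies inside the body of Nr6a1, where its exons face introns and overlap no exon on the other strand. Nr6a1 had 0 to 7 counts. The log2 fold change with ADAR1 p150 was 1.28 ± 0.16 (SE, adjusted p = 1.24e-07 in edgeR), and the change with 12-HETE of -0.17 did not pass (adjusted p = 0.512).

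The other 4 that rose with ADAR1 p150 had few counts. Cep112os1, opposite a centrosomal protein gene, had 18 and 11 counts under vector and 42 and 51 under ADAR1 p150, and Cep112 had 4 and 1 against 26 and 27, with 4 or 5 in the vehicle and 12-HETE libraries. Tnfsf13os, which spans the cytokine gene of APRIL, had 16 and 16 against 41 and 54. Sox5os3 and Sox5os4, both inside a gene of an HMG-box transcription factor, had 10 and 6 against 38 and 21, and 14 and 10 against 31 and 36. In each of these the ADAR1 p150 libraries lay above both vector libraries, with log2 fold changes of 1.38, 1.27, 1.57 and 1.18 (adjusted p = 0.00176, 0.00199, 0.00958 and 0.0139 in edgeR). None of the 4 passed in DESeq2 (adjusted p between 0.0654 and 0.19), and without vector replicate 2 only Tnfsf13os was still called. In the 12-HETE experiment, vehicle and 12-HETE libraries had 10 and 9 against 11 and 15 counts of Cep112os1, 19 and 15 against 29 and 31 of Tnfsf13os, 19 and 5 against 13 and 10 of Sox5os3, and 18 and 15 against 13 and 21 of Sox5os4, and none passed.

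Ppifos, opposite the gene of the mitochondrial cyclophilin D, had 252 and 297 counts under vector and 166 and 146 under ADAR1 p150, and 297 and 280 under 12-HETE against 246 and 252 under vehicle, in deeper libraries. Its log2 fold change was -1.11 ± 0.12 with ADAR1 p150 (SE, adjusted p = 1.36e-08 in edgeR) and 0.02 ± 0.12 with 12-HETE (adjusted p = 0.914). Ppif shares 921 exon bases with it and had 0 to 5 counts. Atxn7l1os2, opposite an ataxin 7-like gene, had 55 and 48 counts under vector and 25 and 28 under ADAR1 p150, and 39 and 45 under vehicle against 27 and 28 under 12-HETE. Atxn7l1 fell too, from 73 and 84 to 28 and 32 counts under ADAR1 p150 and from 73 and 72 to 37 and 29 under 12-HETE. The log2 fold changes with ADAR1 p150 were -1.25 for the transcript and -1.67 for the parent (adjusted p = 0.000303 and 4.49e-07 in edgeR), which made this the only pair called on both sides. Pitpnm2os1, inside a phosphatidylinositol transfer protein gene, had 19 and 19 counts under vector and 7 and 12 under ADAR1 p150, a change of -1.28 (adjusted p = 0.0229) that DESeq2 did not call (adjusted p = 0.154) and that failed without either vector library or without ADAR1 p150 replicate 1 (adjusted p = 0.0909, 0.0702 and 0.199). Under vehicle it had 24 and 17 counts and with 12-HETE 21 and 12.

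**Figure D3:**
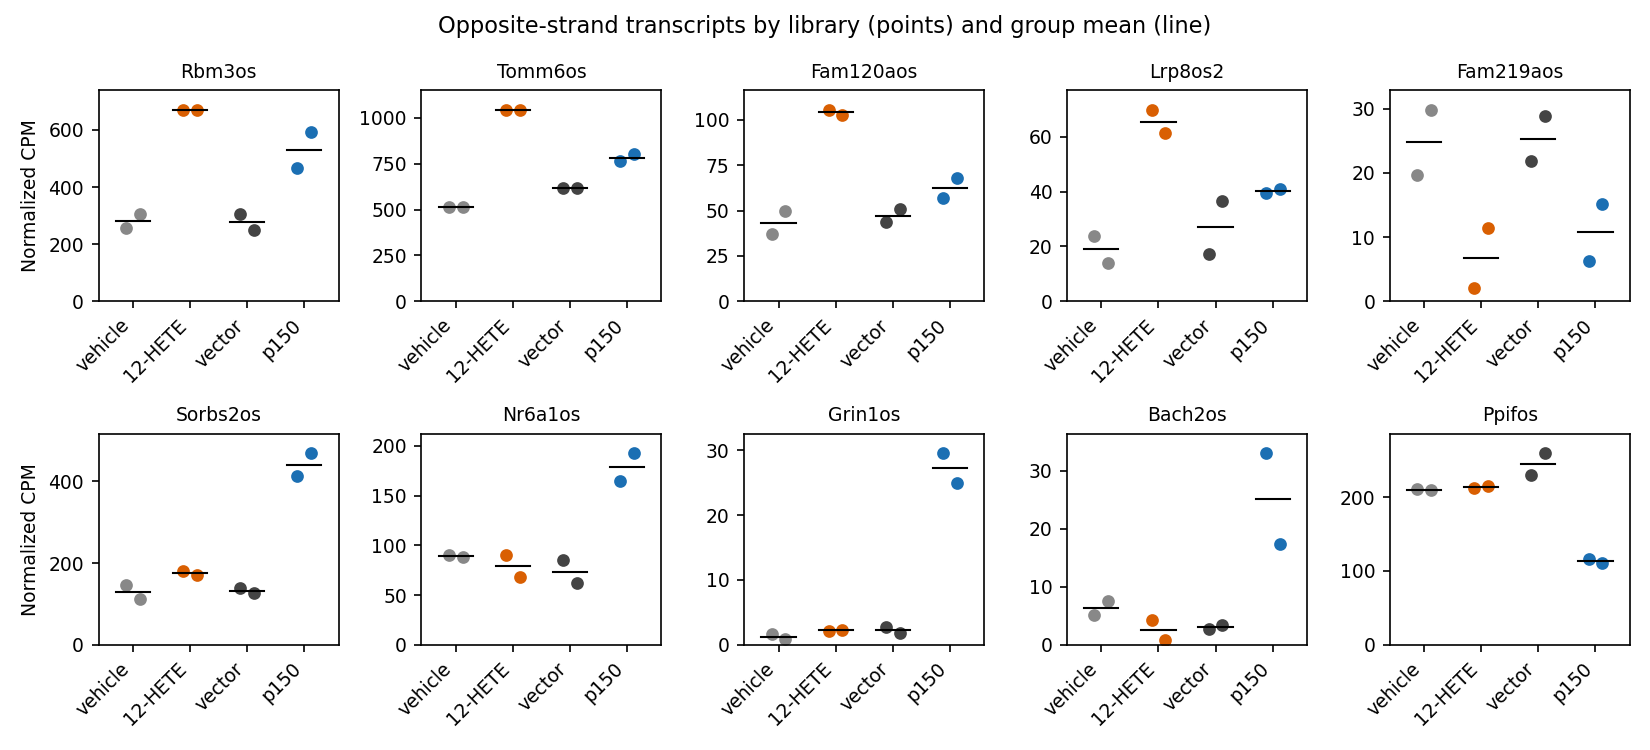
Normalized CPM (vertical axes from 0) of 10 opposite-strand transcripts in each of 8 libraries, with a point per library and a line at the mean of the 2 libraries of each group. In the upper row the 12-HETE libraries of Rbm3os, Tomm6os, Fam120aos and Lrp8os2 lie above, and those of Fam219aos below, both vehicle libraries; in the lower row the ADAR1 p150 libraries of Sorbs2os, Nr6a1os, Grin1os and Bach2os lie above, and those of Ppifos below, both vector libraries.

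Among parents not yet described, Stk35 had 20 and 21 under vehicle, 39 and 30 under 12-HETE, 24 and 20 under vector and 26 and 33 under ADAR1 p150. The counts of Fgf2 were 30 and 19 under vehicle, 18 and 22 under 12-HETE, 24 and 24 under vector and 29 and 25 under ADAR1 p150, and those of Pitpnm2 30 and 20 under vehicle, 30 and 38 under 12-HETE, 22 and 30 under vector and 31 and 34 under ADAR1 p150. None of these 3 passed in either contrast. Fam219a had 0 to 2 counts per library, Tnfsf13 0 to 3 and Sox5 1 to 4, too few to be tested.

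The treatments were also compared with each other, since a call under one only does not show that they differ. The difference between the 2 effects was called for 9 of the 67 transcripts (13.4%, against 8.33% of all genes). Bach2os, which is among them, met the count minimum only through the ADAR1 p150 libraries, so its call was conditioned on that group. The effect of 12-HETE was the higher one for Lrp8os2, Pitpnm2os2, Ppifos and Stk35os1, by 1.23, 1.21, 1.13 and 1.09 on the log2 scale, and the lower one for Bach2os, Fgf2os, Egfros, Nr6a1os and Sorbs2os, by -4.24, -2.21, -1.50, -1.45 and -1.29. Egfros, opposite the gene of the epidermal growth factor receptor, was the only one that passed in opposite directions: it had 64 and 61 counts under vehicle and 39 and 36 under 12-HETE, but 65 and 55 under vector and 112 and 108 under ADAR1 p150. Its log2 fold changes were -0.93 ± 0.22 and 0.58 ± 0.19 (SE, adjusted p = 0.00135 and 0.0187 in edgeR). Of the 14 transcripts past an adjusted p of 0.05 in both contrasts, 7 were higher in both, 6 were lower in both and Egfros differed. The same count was not made over all genes, so whether this is particular to these transcripts was not tested. The experiments share no library.

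**Figure D4:**
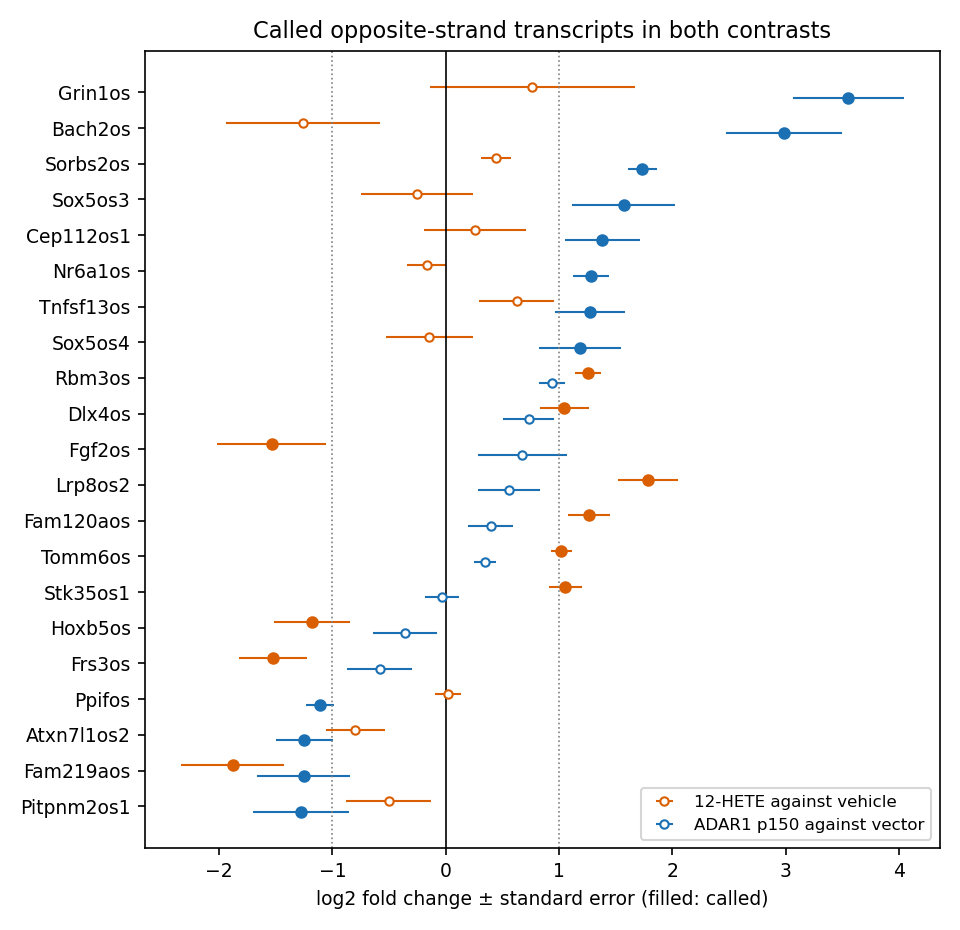
Log2 fold change with its standard error (horizontal axis) of the 21 called opposite-strand transcripts under 12-HETE against vehicle and under ADAR1 p150 against vector; filled points are called, and dotted lines mark a 2-fold change. Only Fam219aos is filled in both. Grin1os and Bach2os, at the top, met the count minimum only through the ADAR1 p150 libraries, so that their points there are fitted values and no measured folds.

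Whether a transcript and its parent changed together could be described for 30 pairs in which both passed the count minimum. In 23 pairs with 12-HETE and in 19 with ADAR1 p150, both log2 fold changes had the same sign. Across the 30 pairs, Pearson's r was 0.56 and Spearman's rho 0.58 with 12-HETE, and 0.53 and 0.41 with ADAR1 p150; the 2 genes of a pair were counted in the same libraries and often share exon bases, and Pitpnm2os1 and Pitpnm2os2 share a parent. Both genes passed an adjusted p of 0.05 in 4 pairs with 12-HETE and in 6 with ADAR1 p150, always in the same direction. Tbx3, a T-box factor of mammary development, rose by 0.98 and 1.16 (adjusted p = 0.000717 and 0.000597 in edgeR) and Tbx3os1 by 0.40 and 0.39 (adjusted p = 0.0103 and 0.0156). Tnk2os fell by 0.91 and 0.88, and Tnk2, a non-receptor tyrosine kinase, fell by 1.57 with ADAR1 p150 (adjusted p = 0.0175). Of the 35 parents tested, 2 were called with 12-HETE and 5 with ADAR1 p150, where 14.4% and 12.8% of all genes tested were called.

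The log2 fold changes of transcript and parent differed by over 2 standard errors in 4 pairs with 12-HETE, among them Lrp8os2 by 2.09 ± 0.54 and Fam120aos by 1.57 ± 0.29, and in 9 with ADAR1 p150, among them Egfros by 1.71 ± 0.51 and Pitpnm2os1 by -1.31 ± 0.52. These are values without a test. In the 50 pairs with at least 20 summed counts in every library, the share of counts listed under the transcript had a median of 86.8% under vehicle, 88.6% with 12-HETE, 88.8% under vector and 90.3% with ADAR1 p150. It was over 50% in every library in 36 pairs and under 50% in every library in 7. With 2 libraries against 2, an exact permutation test cannot pass, so no p is given for single shares. The widest shifts were a rise of 26.4 percentage points for Fam120aos with 12-HETE, whose vector libraries also lay above vehicle, and a fall of 20.3 points for Pitpnm2os1 with ADAR1 p150.

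**Figure D5:**
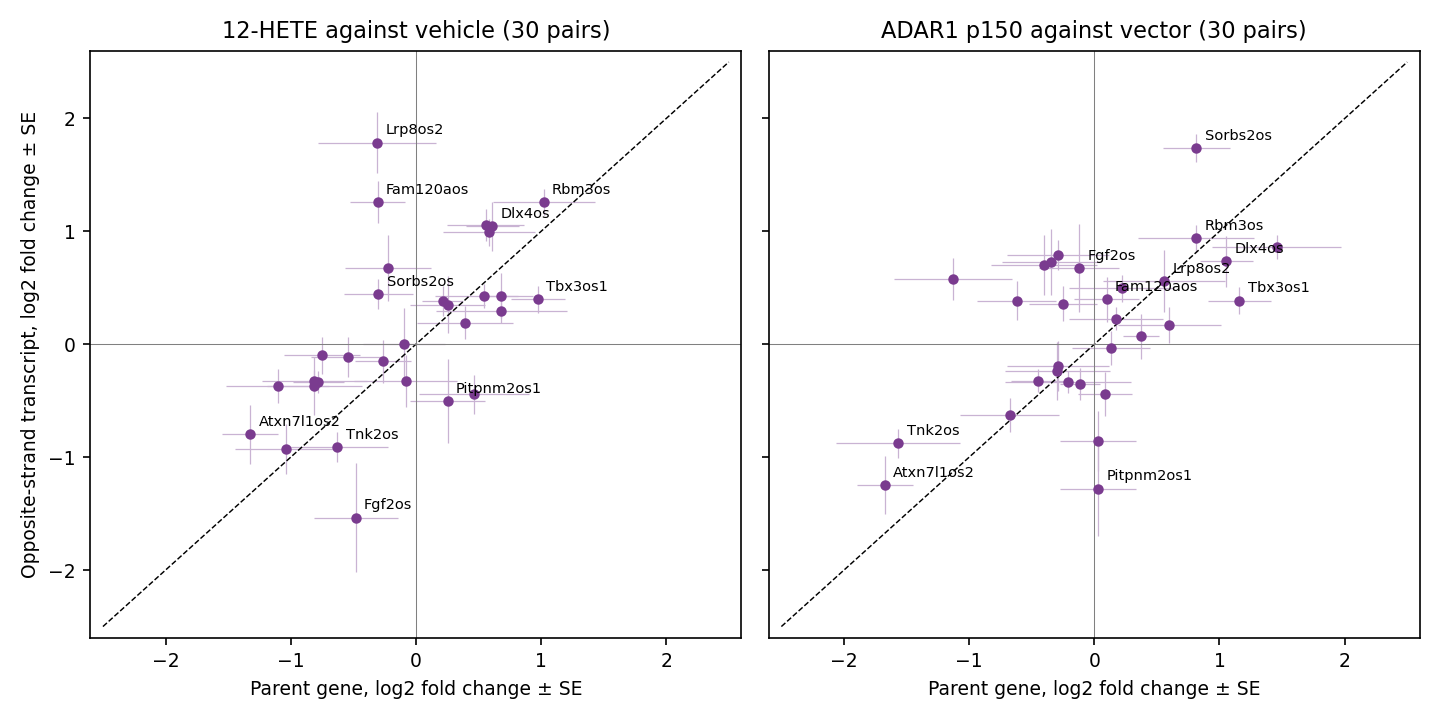
Log2 fold change of the opposite-strand transcript (vertical axis) against that of its parent (horizontal axis), each with its standard error, in 30 pairs for 12-HETE (left) and ADAR1 p150 (right); the dashed line marks equal change. Most pairs lie in the quadrants of equal sign, while Lrp8os2 and Fam120aos lie far above the line with 12-HETE.

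The promoter windows of called transcripts differed in CpG content. Among the 6 that were higher with 12-HETE, the ratio of observed to expected CG was over 0.6 for 4: Fam120aos (0.992), Rbm3os (0.922), Stk35os1 (0.807) and Tomm6os (0.758). For Dlx4os and Lrp8os2 it was 0.516 and 0.228. It was under 0.6 in all 3 windows found for the 4 that fell with 12-HETE. The same held for the 4 windows found among the 8 that rose with ADAR1 p150, and for the 4 of those that fell. The highest there was 0.523 for Grin1os, which, like Bach2os, met the count minimum only through the ADAR1 p150 libraries. Over all 74 windows of opposite-strand transcripts the ratio was over 0.6 in 29.7%. The numbers of called transcripts are small and a description. Of the 20 called transcripts placed in the annotation, 7 had exons that overlap no exon on the other strand: Fam120aos, Fgf2os, Lrp8os2, Nr6a1os, Pitpnm2os1, Sox5os3 and Sox5os4. Of these, Lrp8os2, Nr6a1os, Pitpnm2os1, Sox5os3 and Sox5os4 lie inside the parent's body, so their exons face its introns. Fgf2os overlaps the parent's 5′ end without shared exon bases. Among all placed transcripts with a mean count of at least 10, 11 faced no exon on the other strand and 53 did.

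Another 22 transcripts passed an adjusted p of 0.05 in at least one contrast but were called in neither, besides the 4 abundant ones above: Abhd11os, Cebpzos, Dhrs13os, Egfros, Gssos2, Ino80dos, Lppos, Nudt12os, Peak1os, Phtf1os, Pitpnm2os2, Rab10os, Rbfaos, Rptoros, Tbc1d22bos, Tbx3os1, Tnk2os, Ube4bos3, Uckl1os, Zbtb11os1, Zfhx2os and Zmiz1os1. A further 20 passed in neither, at mean counts of 13.1 to 122: Acss2os, Aknaos, Alkbh3os1, Arhgap27os3, Chn1os3, Fancd2os, Fbxl12os, Fcnaos, Ggnbp2os, Hectd2os, Man2c1os, Mccc1os, Nckap5los, Phf2os1, Rsf1os2, Slc7a6os, Sp3os, Tspan2os, Usp46os2 and Zfp335os. Their log2 fold changes lay between -0.43 and 0.75 with 12-HETE and between -0.66 and 1.01 with ADAR1 p150. Ino80dos, opposite a subunit gene of a chromatin remodeller, had 233 and 212 counts under vehicle against 488 and 522 under 12-HETE (log2 fold change 0.99, adjusted p = 3.48e-08 in edgeR), and Zfhx2os changed by 0.997 (adjusted p = 0.0108). Both lay just under 2-fold.

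The remaining 21 had a mean count under 10 and were tested only in the fit down to a mean count of 3. On the scale of normalized CPM, their treated and control libraries did not overlap in 9 of 21 with 12-HETE (42.9%, against 46.9% of the 5229 genes of this level) and in 12 with ADAR1 p150 (57.1%, against 46.4%), and in 4 in both experiments. The count in both experiments was not made over the 5229 genes, so it is no result about these transcripts. Of the 4, Map2k3os had 10 and 12 counts under vehicle, 1 and 2 under 12-HETE, 11 and 9 under vector, and 3 and 0 under ADAR1 p150. It starts 166 bases from Map2k3, a kinase that activates p38, and was called as lower under both treatments in that fit (adjusted p = 0.00181 and 0.00206 in edgeR), with ratios of summed counts of 0.12 (exact 95% counting interval 0.0229 to 0.398) and 0.122 (0.0233 to 0.413). Ptprtos had 8 and 10, 17 and 19, 3 and 5, and 7 and 8 counts in the same order of groups, Prkag2os1 5 and 2, 7 and 9, 4 and 2, and 6 and 7, and Tmem51os1 10 and 9, 7 and 2, 9 and 10, and 9 and 7. The raw counts of Tmem51os1 tie at 9 between vector and ADAR1 p150, and its groups parted only after scaling for depth, as 8.22 and 8.74 against 6.33 and 5.29 normalized CPM. Hk1os was the other one called with 12-HETE (log2 fold change 1.64, adjusted p = 0.0264). The others were Bcas3os1, Brd3os, Ccdc34os, Cdiptos, Dmrta2os, Dnmt3aos, Hoxb3os, Lrrc75aos1, Parvaos, Prox1os, Rsf1os1, Srrm4os, Usp46os1, Wdr83os, Zbtb8os and Zfp85os.

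Natural antisense transcripts with other names were listed for comparison. Of 11 in the table, 6 could be tested. Tsix, the antisense regulator of Xist, had 102 and 90 counts under vehicle, 1292 and 1398 under 12-HETE, 80 and 85 under vector and 1811 and 1779 under ADAR1 p150, whereas Xist, shown for contrast after its values were seen, had 0 to 43. Tsix rose by log2 fold changes of 3.62 and 4.15 (adjusted p = 2.66e-22 and 5.33e-24 in edgeR), and Zfas1, a snoRNA host transcript, fell by 2.23 and 1.46 (adjusted p = 8.7e-05 and 0.0125). Kcnq1ot1, an imprinted antisense transcript, rose with ADAR1 p150 by 1.52 (adjusted p = 0.000107). Dlx1as, Hoxaas2 and Hoxaas3 passed in neither contrast, Airn, Hotairm1 and Hottip had mean counts under 1, and Haglr and Sox2ot were at 0.

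Epithelial keratins Krt8, Krt18, Krt7 and Krt14 were present, with 183 to 362 summed counts of the 9 epithelial and tumour markers per library. The others were low: Erbb2 had 2 to 17 counts per library, Esr1 4 to 8 and Epcam 1 to 4. Krt5 had 1 count in all and Cdh1 was at 0. Of the immune markers reported here, Cd3e and Adgre1 were at 0, Ptprc had 1 count in all and Cd68 had 10 to 26, and these 4 summed to 17 to 22 under vehicle, 10 to 13 with 12-HETE, 22 to 24 under vector and 16 to 26 with ADAR1 p150. The 5 fibroblast markers summed to 31 to 33, 38 to 43, 10 to 32 and 32 to 59, mostly from Dcn, and the 3 endothelial markers to at most 11. Their part in the results was not tested.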

How the data were processed

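Per the study's methods, duplicate reads were removed with prinseq, reads aligned to GRCm38 with STAR, and fragments counted per gene with featureCounts; the authors deposited raw counts without normalization, so counts are not original read numbers. A mean count of at least 10 was required, and 6901 genes were tested in 1 fit of 8 libraries in edgeR 4.0.16 (TMM factors, quasi-likelihood F test, limma 3.58.1, R 4.3.3) with Benjamini-Hochberg adjustment. Standard errors are the size of the log2 fold change divided by the square root of F. On simulated counts of the 12-HETE comparison with 6901 genes, 200 of 200 genes changed 4-fold and 3 unchanged genes were called. The changed genes were drawn from those well above the count minimum, and all genes were given the same spread. Recovery of changes near 2-fold or of genes near the minimum was not tested. Positions are from GENCODE M21, whose exons may differ from the counting annotation, and promoter windows from RefSeq, both on GRCm38. At these depths 3 counts equal 2.11 to 2.74 CPM, for counting error only. Replicates differed by more than sampling noise over all tested genes (mean chi-square 1.82 to 3.28), but over the opposite-strand transcripts this was 1.56 for vehicle, 0.986 for 12-HETE, 0.984 for vector and 1.39 for ADAR1 p150. Same-numbered libraries deviated with correlations of -0.0774 and -0.112, so numbers were not taken as pairs. Alternatives were DESeq2 1.42.0, RLE factors, other count minimums, fits of 4 libraries, a replicate block, and leaving out a library or AY036118.

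The transcripts and gene lists were chosen with earlier results of these data known. Every transcript is named; values per library are given for called transcripts, the 6 with the highest mean counts, those under 10 mean counts whose groups do not overlap in both experiments, and parents of the first 2 kinds, some of these by range only. Others given with values were chosen after their values were seen. One marker of the fixed lists is not reported here.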

Additional observations from a re-analysis of the deposited data

Results flagged for a closer look

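For 9 opposite-strand transcripts the effects of 12-HETE and ADAR1 p150 differed by a test of the difference itself (edgeR quasi-likelihood F test, Benjamini-Hochberg adjusted; values are the log2 fold change with 12-HETE minus that with ADAR1 p150). The difference was -4.24 for Bach2os, given without a p, -2.21 for Fgf2os (adjusted p = 0.0122), -1.50 for Egfros (adjusted p = 0.000287), -1.45 for Nr6a1os (adjusted p = 3.92e-05) and -1.29 for Sorbs2os (adjusted p = 5.42e-06). It was 1.23 for Lrp8os2 (adjusted p = 0.0291), 1.21 for Pitpnm2os2 (adjusted p = 0.0212), 1.13 for Ppifos (adjusted p = 1.19e-05) and 1.09 for Stk35os1 (adjusted p = 0.000296). Some of these differences rested on single libraries. That of Lrp8os2 failed in DESeq2 (adjusted p = 0.137) and without vehicle replicate 5, 12-HETE replicate 4, vector replicate 2 or either ADAR1 p150 library, and was 0.58 without vector replicate 2 (adjusted p = 0.492). That of Pitpnm2os2 failed in DESeq2 (adjusted p = 0.142), with no count minimum and without vehicle replicate 4, 12-HETE replicate 5, vector replicate 1 or ADAR1 p150 replicate 1 (adjusted p = 0.0521 to 0.142 over these alternatives). That of Fgf2os failed without vehicle replicate 5, 12-HETE replicate 4 or vector replicate 1 (adjusted p = 0.0889, 0.0713 and 0.0551), and that of Stk35os1 lay just under 2-fold without 3 of the libraries. DESeq2 gave no adjusted p for Bach2os and Fgf2os. Bach2os met the count minimum only through the ADAR1 p150 libraries, so its call among the 9 was conditioned on that group and its difference is a description. Agent and experiment cannot be told apart in these differences, since each agent was used in 1 experiment.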

How the results depend on the processing

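At an adjusted p of 0.05 alone, 29, 32 and 18 transcripts passed for 12-HETE, ADAR1 p150 and the difference between them. Over all 6901 genes, 2021, 1766 and 1033 passed. DESeq2 called 5 for ADAR1 p150 and 5 for the difference, and a minimum of 10 counts in every library left 6 for ADAR1 p150, where 55 transcripts could be tested. Leaving out 1 library gave 9 to 12, 8 to 13 and 6 to 9 calls. The median share of a pair's counts under the transcript was 92.6% with at least 50 summed counts and 96.3% per kilobase of exon, against 88.1%. With the replicate block, 11, 12 and 9 transcripts were called, and with the pairs crossed in the ADAR1 p150 experiment, chosen after seeing the data, 11, 13 and 10. Over all 6901 genes, the numbers were 942, 813 and 506 with the block and 1020, 921 and 633 with the pairs crossed. Fam120aos, Frs3os, Lrp8os2 and Rbm3os with 12-HETE, and Atxn7l1os2, Nr6a1os, Ppifos and Sorbs2os with ADAR1 p150, were called under all 17 alternatives. Of 939 values of named genes under alternatives, 841 kept direction and side of the threshold, 61 no longer passed, 6 newly passed and 31 changed sign, 0 of them a called transcript in its own contrast. No scaling moved the median over all genes by more than 0.1 on the log2 scale. The causes of these changes were not tested.

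The sign changes were all of small or poorly counted effects. With 12-HETE, Ppifos had log2 fold changes of -0.00241 in DESeq2, -0.00241 with RLE factors, -0.029 with no minimum, -0.00653 in the fit of 4 libraries and -0.0523 without AY036118. With ADAR1 p150, Fam120a had -0.00777 with no minimum, and Pitpnm2 had -0.021 in DESeq2, -0.026 with RLE factors, -0.053 at a mean count of 3, -0.0727 with no minimum, -0.021 in the fit of 4 libraries and -0.0218 without AY036118. Leaving out 1 library with 12-HETE gave ranges of -0.029 to 0.52 for Cep112os1, -0.38 to 0.016 for Nr6a1os, -0.0517 to 0.031 for Ppifos, -0.998 to 1.02 for Sox5os3, -0.58 to 0.21 for Sox5os4, -1.22 to 0.27 for Lrp8 and -0.098 to 0.60 for Pitpnm2. With ADAR1 p150 it gave -0.13 to 0.0589 for Stk35os1, -0.34 to 0.42 for Fam120a, -0.14 to 0.24 for Pitpnm2, -0.032 to 0.36 for Rapgef3, -0.55 to 0.25 for Scpep1 and -0.10 to 0.34 for Stk35. With 2 libraries per group and about 1101767 to 1537037 counts each, changes of transcripts under about 20 counts rest on few reads.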
